A study of Mus musculus with 10 samples.

Results

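Bmps (bone morphogenetic proteins) and the secreted proteins that hold them in check were followed across 5 groups of libraries. The members were the 9 genes whose symbol in the deposited count table was Bmp2, Bmp4, Bmp5, Bmp6, Bmp7, Nog, Chrd, Grem1 or Bmper. They are 9 of 52459 symbols, and all 9 were among the 18818 genes that passed the filter on low counts. The cells were wild-type ES-Bruce4, a single C57BL/6 mouse embryonic stem cell line that had been kept on embryo fibroblast feeders, depleted of feeders and led towards neuromesodermal progenitors (NMPs), the posterior cells that give rise to spinal cord and trunk mesoderm. All groups had basic Fgf (10 ng/ml) in the medium from day 0. The protocol then adds CHIR99021 (5 µM), a Gsk3 inhibitor that turns on Wnt signalling, on day 2 and splits the cells on day 3. The groups were D2, D3, D6 and D7, taken on days 2, 3, 6 and 7 without Gdf11, of which D2 bears the label of epiblast stem cells, and day 7 after Gdf11 (50 ng/ml), a Tgf-β family ligand, for 24 h from day 6 (D7G). Each group had n = 2 libraries. Whether D2 was taken before or after CHIR99021 was added is not stated, nor which libraries, if any, had vitamin A in the B27 supplement. The labels leave unsaid if replicates came from separate cultures. The p-values therefore reflect the spread among the libraries at hand, and that spread may be technical.

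Bmps are secreted dimers that bind type I and type II serine/threonine kinase receptors. The receptors phosphorylate Smad1, Smad5 and Smad9, which enter the nucleus with Smad4 and turn on genes such as those of the Id and Msx families. Noggin, chordin, gremlin and Bmper bind the ligands outside the cell and change how much reaches the receptors. In the tail of the embryo this balance bears on the outgrowth of posterior mesoderm and on the dorsal to ventral pattern of the neural tube.

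Libraries held 31078950 to 33418015 gene counts. Across genes, Pearson's r was at least 0.995 within groups and at most 0.990 between groups. Of the markers of the labelled states, the 5 of primed epiblast summed to 2135 to 2146 CPM (counts scaled to a library total of 1000000) in D2 and to 428 to 437 CPM in D3. The 6 of NMPs summed to 161 to 169 CPM in D2, 995 to 1001 in D3, 525 to 542 in D6, 371 to 372 in D7 and 310 to 315 in D7G. Among the latter, T, Cdx2, Cdx1 and Wnt3a were under 1 CPM in D2, and Wnt3a was under 1 CPM in D6, D7 and D7G. Sox2 alone had means of 159 CPM in D2, 178 in D3, 191 in D6, 233 in D7 and 193 in D7G. It thus made up most of the NMP sum in D2, D7 and D7G. RNA of whole dishes was measured, so fewer cells of a type and less RNA per cell cannot be told apart.

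The promoters of 4 members are shown because these genes follow different courses below. Bmp4, Bmp5 and Chrd had their highest means in D7G, and Grem1 in D3. Chrd was not called different between D7G and D7. Chrd and Grem1 had their lowest means in D6, and neither was called different there from D2. RefSeq's promoter table (GRCm38.p6, the mm10 assembly) held 6 of the 9 members. Bmp2, Bmp7 and Nog had no entry. Each run is the 250 bases before the RefSeq start, 5′ to 3′ on the gene's strand, with motif matches in capitals.
Bmp4, chr14:46390670-46390919, minus strand: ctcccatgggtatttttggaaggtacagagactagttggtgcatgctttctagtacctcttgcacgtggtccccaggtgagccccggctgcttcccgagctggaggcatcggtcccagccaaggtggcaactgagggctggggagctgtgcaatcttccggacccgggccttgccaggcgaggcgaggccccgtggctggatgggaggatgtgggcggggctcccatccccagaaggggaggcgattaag
Bmp5, chr9:75775115-75775364, plus strand: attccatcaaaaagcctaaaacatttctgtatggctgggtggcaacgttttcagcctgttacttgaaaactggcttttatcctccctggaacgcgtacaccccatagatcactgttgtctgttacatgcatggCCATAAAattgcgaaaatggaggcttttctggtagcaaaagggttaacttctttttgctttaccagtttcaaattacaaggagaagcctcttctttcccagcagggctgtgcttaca
Grem1, chr2:113758649-113758898, minus strand: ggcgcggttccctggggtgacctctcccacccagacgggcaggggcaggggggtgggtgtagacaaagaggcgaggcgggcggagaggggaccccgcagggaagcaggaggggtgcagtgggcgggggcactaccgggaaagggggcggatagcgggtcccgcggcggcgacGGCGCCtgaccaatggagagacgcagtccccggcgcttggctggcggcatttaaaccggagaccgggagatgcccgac
Chrd, chr16:20732877-20733126, plus strand: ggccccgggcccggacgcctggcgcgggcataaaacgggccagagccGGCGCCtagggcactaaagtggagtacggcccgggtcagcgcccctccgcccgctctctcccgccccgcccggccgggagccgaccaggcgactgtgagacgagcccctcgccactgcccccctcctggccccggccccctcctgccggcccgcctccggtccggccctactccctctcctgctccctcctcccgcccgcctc
GC content was 63.2% before Bmp4, 42.8% before Bmp5, 72% before Grem1 and 78% before Chrd, against a median of 52.4% over all 32851 promoters in the table. Both strands were searched for 5 motifs. The Cdx motif TTTATGG was in 2.43% of all promoters and in Bmp5 alone of the 6, on the other strand (read as CCATAAA above) at -117 from the start. The GC-rich Smad1/5 element GGCGCC was in 9.59% of all promoters and in 2 of the 6, at -78 before Grem1 and -203 before Chrd. The TCF/LEF motif CTTTGAT (3.21% of all promoters), the palindromic Smad element GTCTAGAC (0.167%) and the TATA box TATAAA (12.4%) were in none of the 6. A match is a description of the letters and not a binding site.

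Bmp4 is the ligand best known for its part in forming mesoderm and posterior structures, and its gene lies at chr14:46383520-46390669 (minus strand, mm10). Its level was 1.25 and 1.45 CPM in the D2 replicates, 5.10 and 5.86 in D3, 8.90 and 9.61 in D6, 18.5 and 17.2 in D7, and 53.5 and 65.0 in D7G. No group overlapped another, and each step in the order D2, D3, D6, D7, D7G was called higher. The last of these 4 steps, here and below, sets treated against untreated cells of day 7 and is not a step in time. The differences in level, as log2 fold changes ± SE, were 1.94 ± 0.19 for D3 against D2, 0.83 ± 0.13 for D6 against D3, 0.91 ± 0.10 for D7 against D6 and 1.73 ± 0.08 for D7G against D7 (adjusted p = 2.54e-12, edgeR quasi-likelihood test with Benjamini-Hochberg adjustment, as for all adjusted p-values here). From D2 to D7G the fitted rise was 42.7-fold. Gm15217, on the opposite strand, shares 89 exon bases with Bmp4 (4% of its exon length), and whether counting used strand is not stated.

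Bmp2, the ligand closest to Bmp4 in sequence, took another course (chr2:133552159-133562885, plus strand). It stood at 0.512 and 0.579 CPM in D2, 4.47 and 5.13 in D3, 2.66 and 3.72 in D6, 3.02 and 3.15 in D7, and 12.7 and 14.1 in D7G. The D7 replicates lay between those of D6, and all other groups were apart. Bmp2 was higher in D3 than in D2 (log2 3.05 ± 0.22), lower in D6 than in D3 (-0.51 ± 0.15, adjusted p = 0.00645) and higher in D7G than in D7 (2.12 ± 0.13, adjusted p = 1.01e-10, 4.34-fold). Between D7 and D6 the log2 difference was -0.08 ± 0.17, with a 95% interval of -0.43 to 0.26. The call in D6 against D3 was lost without D6 replicate 1 (log2 -0.30, adjusted p = 0.139) and without D3 replicate 2 (-0.40, adjusted p = 0.0755).

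Bmp5 encodes a ligand of the subgroup that also holds Bmp6 and Bmp7 (chr9:75775364-75900310, plus strand). Its counts were 2 and 1 in D2 and 6 and 6 in D3, against 205 and 183 in D6, 330 and 256 in D7 and 359 and 399 in D7G. The later groups lay at 5.83 to 12.4 CPM, and the early ones at 0.0322 to 0.191 CPM. The log2 difference of D6 against D3 was 5.05 ± 0.26, the largest of the members in any of the 4 steps. Bmp5 was higher in D7 than in D6 (0.49 ± 0.12, adjusted p = 0.00399) and higher in D7G than in D7 (0.43 ± 0.11, adjusted p = 0.00452). The difference of D3 from D2 was not called (adjusted p = 0.0645). With 12 against 3 counts the ratio of the CPM was 3.96, and its 95% interval of 1.07 to 21.9 covers counting error only. That missing call was gained without D7 replicate 1 and without D7 replicate 2 (adjusted p = 0.0397 in both).

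The later steps of Bmp5 were less firm than the entry at D6. The rise in D7 was lost without D7 replicate 1 (log2 0.26, adjusted p = 0.160). The rise in D7G was lost without D7 replicate 2 (0.24, adjusted p = 0.151), without D7G replicate 2 (0.34, adjusted p = 0.0549), in DESeq2 (adjusted p = 0.0682) and in the second deposited count table (adjusted p = 0.0559). Gm26903, an antisense gene, shares 1878 exon bases with Bmp5, or 46.7% of its exon length. The second table held 60.7% as many Bmp5 counts over the 10 libraries as the first, against 94.5% to 101% for the other members. Gm26903 itself had 0 to 5 counts per library in the first table, and its part in the difference between the tables was not tested.

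Bmp7, a ligand with wide roles in kidney, eye and skeleton, had the most counts of the members in D2 to D7 (chr2:172868012-172940321, minus strand). Its level was 10.98 and 11.6 CPM in D2, 44.7 and 45.7 in D3, 29.1 and 28.7 in D6, 39.3 and 42.5 in D7, and 41.6 and 39.0 in D7G. The mean was highest in D3 and lowest in D2, and the replicates of D7 and D7G overlapped. D3 was not called different from D7 (D7 against D3, log2 -0.10 ± 0.06, adjusted p = 0.120). Nor was it called different from D7G (D7G against D3, -0.12 ± 0.06, adjusted p = 0.0625). Bmp7 rose from D2 to D3 (log2 1.92 ± 0.07), fell to D6 (-0.57 ± 0.06) and rose again to D7 (0.47 ± 0.06). D7G differed from D7 by -0.02 ± 0.06 (adjusted p = 0.796), with a 95% interval of -0.14 to 0.10.

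Bmp6 is best known as an inducer of hepcidin in iron balance and lies at chr13:38345107-38500302 (plus strand). It varied least of the ligands: 5.86 and 5.98 CPM in D2, 10.6 and 10.5 in D3, 7.99 and 9.87 in D6, 8.80 and 8.76 in D7, and 9.65 and 8.03 in D7G. D2 lay below all other groups, and the replicates of D6, D7 and D7G overlapped. Its only call among the 4 steps was the rise from D2 to D3 (log2 0.75 ± 0.11, adjusted p = 1.1e-05). For D7G against D7 the difference was 0.01 ± 0.11, with a 95% interval of -0.22 to 0.24. Without D6 replicate 2, the higher of the pair, Bmp6 was called lower in D6 than in D3 (-0.31, adjusted p = 0.0351, against -0.17 and 0.179 with it). Txndc5, on the opposite strand, shares 5.74% of the exon length of Bmp6.

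**Figure D1:**
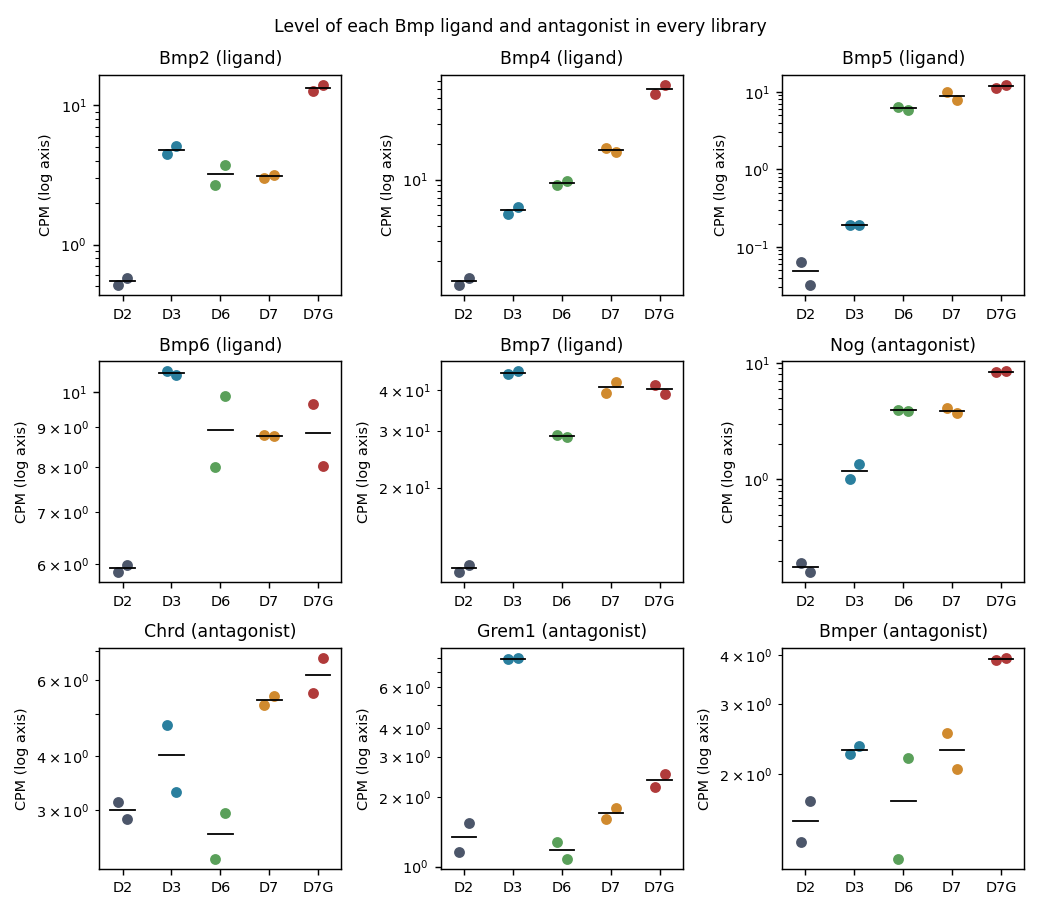
Level of each of the 9 members in every library, in CPM on a log axis with its own range per gene; points are libraries, in the order replicate 1 and 2, and bars are group means. Bmp4 climbs in every group from 1.35 to 59.2 CPM, Bmp5 enters at D6, and Grem1 peaks in D3 at 7.98 CPM.

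Nog encodes noggin, which covers the receptor-binding faces of Bmps, and its single exon lies at chr11:89300638-89302332 (minus strand). Its counts were 6 and 5 in D2, 32 and 43 in D3, 127 and 121 in D6, 136 and 122 in D7, and 265 and 272 in D7G. D6 and D7 overlapped, and the other groups were apart. Nog rose from D2 to D3 (log2 2.65 ± 0.35) and from D3 to D6 (1.79 ± 0.18). It differed by -0.05 ± 0.14 between D7 and D6, and was 2.16-fold higher in D7G than in D7 (1.11 ± 0.12, adjusted p = 4.86e-07). These calls held in all 19 alternatives tried.

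Grem1 encodes gremlin, a Bmp antagonist that keeps limb bud outgrowth going (chr2:113746164-113758646, minus strand). Its counts were 36 and 48 in D2, 251 and 251 in D3, 41 and 34 in D6, 54 and 59 in D7, and 70 and 81 in D7G. The D3 libraries stood above all others, and D2 and D6 overlapped. Grem1 was 5.58-fold higher in D3 than in D2 (log2 2.48 ± 0.16) and 6.37-fold lower in D6 than in D3 (-2.67 ± 0.16, adjusted p = 1.67e-11). D7 differed from D6 by 0.49 ± 0.21 (adjusted p = 0.0839). D7G was higher than D7 by 0.47 ± 0.19 (adjusted p = 0.0473), close to the threshold of 0.05. That last call held in 6 of the 19 alternatives tried. Over all 19 the adjusted p ran from 0.0453 to 0.258, and it was lost without D3 replicate 1, D3 replicate 2, or any of the 4 libraries compared (log2 0.35 to 0.54).

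Chrd encodes chordin, the antagonist first known from the organizer of the amphibian embryo (chr16:20733127-20742384, plus strand). It was at 3.14 and 2.86 CPM in D2, 4.72 and 3.31 in D3, 2.32 and 2.96 in D6, 5.24 and 5.52 in D7, and 5.58 and 6.73 in D7G. The D3 replicates were the farthest apart, and D2 and D6 overlapped. Its main change was the rise from D6 to D7 (log2 0.99 ± 0.17, 1.99-fold, adjusted p = 0.000145). It fell from D3 to D6 (-0.53 ± 0.18, adjusted p = 0.0147), a call lost in DESeq2 (adjusted p = 0.0572), without D3 replicate 1 (-0.25, adjusted p = 0.306) and without D6 replicate 1 (-0.37, adjusted p = 0.145). The difference of D3 from D2 (0.34 ± 0.18, adjusted p = 0.108) was called only without D3 replicate 2 (0.58, adjusted p = 0.0139). D7G differed from D7 by 0.20 ± 0.15, with a 95% interval of -0.11 to 0.50. Thpo, on the opposite strand, shares 2.64% of the exon length of Chrd.

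Bmper encodes a secreted protein with chordin-like repeats that can restrain or help Bmp signalling (chr9:23223076-23485200, plus strand). Its counts were 42 and 53 in D2, 71 and 74 in D3, 39 and 69 in D6, 85 and 68 in D7, and 123 and 126 in D7G. D7G stood above all other groups, and D6 replicates were far apart, from the lowest library of all to the level of D7. Bmper was called higher in D7G than in D7 (log2 0.76 ± 0.19, adjusted p = 0.00350), a call lost without D7 replicate 2 (0.59, adjusted p = 0.0642). The earlier steps were 0.51 ± 0.23 in D3 against D2 (adjusted p = 0.0653), -0.36 ± 0.23 in D6 against D3 and 0.40 ± 0.22 in D7 against D6, none of them called. The first was called without D6 replicate 1 (adjusted p = 0.0312), without D6 replicate 2 (0.0317), with library totals in place of scaling factors (0.0358) and in a fit of D2 and D3 alone (0.0281). Without D6 replicate 2, D6 against D3 became -0.82 (adjusted p = 0.00948) and D7 against D6 0.86 (0.0148). Without D6 replicate 1, D6 against D3 was 0.00 (0.998).

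Counted together, 6 of the 9 members were called higher in D3 than in D2 and 0 lower, where 58.5% of all tested genes were called (29.6% higher and 28.9% lower). The members' median log2 fold change was 1.92, against 0.00 over all tested genes. In D6 against D3, 3 were higher (Bmp4, Bmp5 and Nog) and 4 lower (Bmp2, Bmp7, Chrd and Grem1), where 65.7% of genes were called (32.4% higher and 33.3% lower). The members' median was -0.36, against -0.01 over all genes. The count of 4 was 2 without D6 replicate 1 (Grem1 and Bmp7) and 6 without D6 replicate 2.

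In D7 against D6, 4 members were higher (Bmp4, Bmp5, Bmp7 and Chrd) and 0 lower, where 36.0% of genes were called (20.5% higher and 15.6% lower), with medians of 0.47 for the members and 0.04 for all genes. In D7G against D7, the comparison of 24 h of Gdf11, 6 were higher (Bmp2, Bmp4, Bmp5, Nog, Grem1 and Bmper) and 0 lower, where 40.7% of genes were called (22.5% higher and 18.2% lower). The medians were 0.47 for the members and 0.02 for all genes. Without D7 replicate 2 the 6 became 3 (Bmp2, Bmp4 and Nog), and DESeq2, the second deposited count table and the fit without D7G replicate 2 each left 4.

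D7G can also be read against D6, the state from which both day 7 groups came. There 8 members were higher and 0 lower, where 52.8% of genes were called (30.6% higher and 22.2% lower). This comparison shares its libraries with those above, so the values are set side by side only. Bmp2 differed from D6 by -0.08 in D7 and by 2.04 ± 0.13 in D7G. For Nog the values were -0.05 and 1.07 ± 0.12, and for Bmp7 0.47 and 0.44 ± 0.06. Bmp6 was the member not called (-0.05 ± 0.11).

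**Figure D2:**
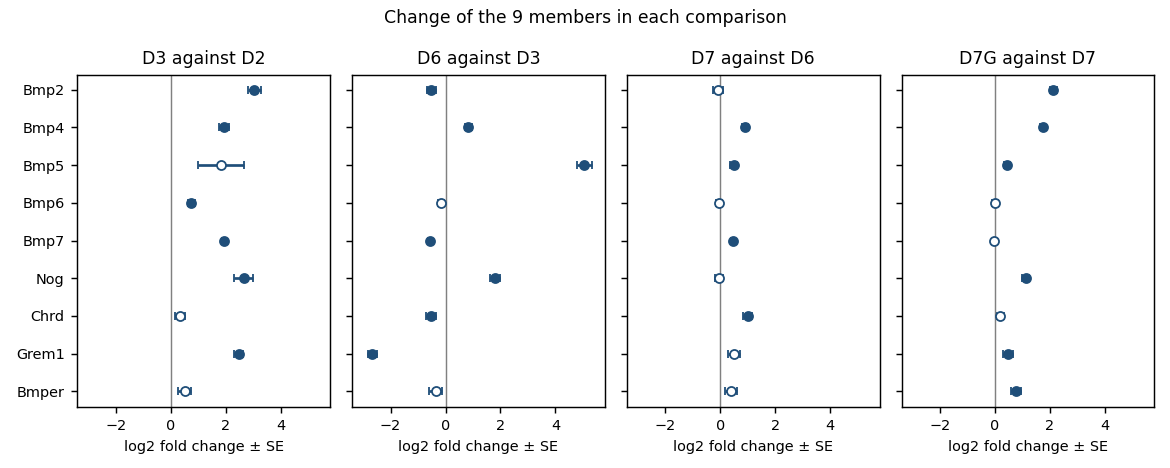
Log2 fold change ± SE of the 9 members in D3 against D2, D6 against D3, D7 against D6 and D7G against D7. Filled points were called at an adjusted p under 0.05 and open points were not. Bmp5 in D6 against D3 (5.05) and Grem1 in the same comparison (-2.67) mark the extremes, and in D7G against D7 Bmp2 (2.12) and Bmp4 (1.73) lie farthest from 0.

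Levels of different genes were compared per length, as CPM per kb of the exon length in the deposited table. The 5 ligands summed to 4.96 and 5.23 CPM per kb in D2, 17.5 and 18.2 in D3, 15.6 and 16.5 in D6, 23.6 and 23.4 in D7, and 43.3 and 48.1 in D7G. The 4 antagonists summed to 1.21 and 1.31, 3.79 and 3.79, 3.31 and 3.50, 4.21 and 3.99, and 7.22 and 7.57 CPM per kb in the same order. Both sums were lowest in D2, highest in D7G and lower in D6 than in D3. The ratio of ligand to antagonist sum was 4.11 and 3.99 in D2, 4.60 and 4.80 in D3, 4.73 and 4.72 in D6, 5.61 and 5.86 in D7, and 5.99 and 6.35 in D7G. It therefore moved far less than either sum, and no test was made on sums over the members.

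Within the ligands the leading gene changed. Bmp7 was the highest ligand per length in D2, D3, D6 and D7, and Bmp4 was the highest in D7G. Bmp7 made up 55.1% and 54.9% of the ligand sum in D2, and 23.9% and 20.2% in D7G. Bmp4 made up 11.3% and 12.4% in D2, 35.1% and 33.03% in D7, and 55.6% and 60.8% in D7G. The ratio of Bmp4 to Bmp7 was 0.849 and 0.729 in D7 and 2.32 and 3.01 in D7G, while the level of Bmp7 was not called different between these groups.

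Within the antagonists the order also turned over. Chrd was the highest per length in D2, Grem1 in D3, and Nog in D6, D7 and D7G. Nog made up 9.39% and 7.24% of the antagonist sum in D2, 15.8% and 21.3% in D3, 71.0% and 65.0% in D6, 57.0% and 54.8% in D7, and 68.3% and 66.0% in D7G. The ratio of Bmp4 to Nog was lowest in D6, at 1.70 and 1.90, and reached 4.87 and 5.85 in D7G, close to the 4.95 and 6.86 of D2, where Nog rested on 6 and 5 counts.

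**Figure D3:**
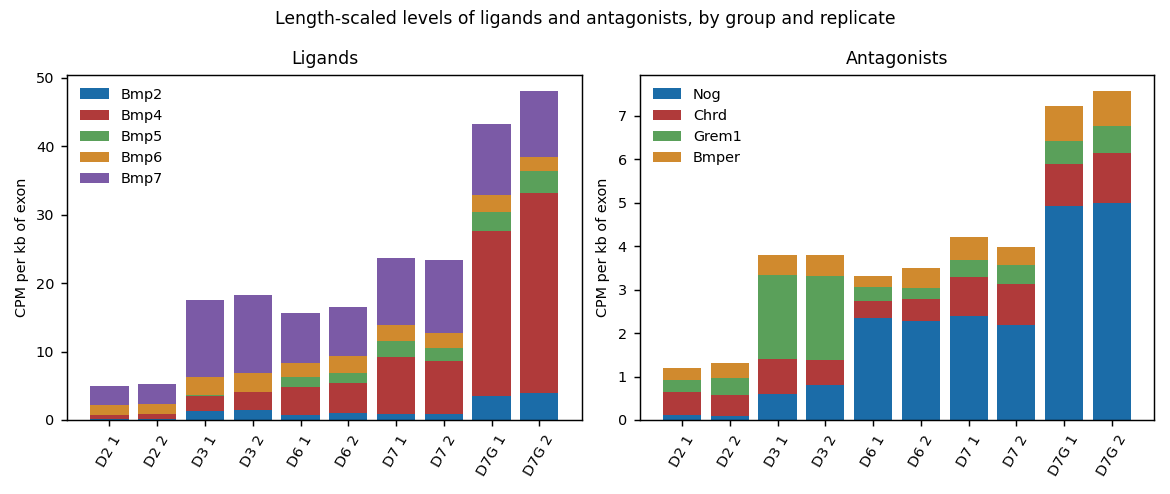
Stacked levels of the 5 ligands (left) and 4 antagonists (right) in each library, in CPM per kb of exon; each bar is a library, named by group and replicate. Bmp4 fills 55.6% and 60.8% of the ligand bars of D7G, where Bmp7 led in the other groups, and Grem1 is the largest antagonist in D3 only.

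Levels of the receptors that take up these ligands ranged widely. Acvrl1 was under 1 CPM in D2, D6, D7 and D7G, and Hjv in D6, D7 and D7G. Of 12 receptors and coreceptors, 4 were higher and 5 lower in D3 than in D2, 9 and 3 in D6 against D3, 4 and 2 in D7 against D6, and 7 and 4 in D7G against D7. Over all tested genes, the shares called in either direction in these comparisons were 58.5%, 65.7%, 36.0% and 40.7%, against which this and the following list counts are to be read. The receptors' median log2 fold changes were 0.01, 0.41, 0.12 and 0.14, against 0.00, -0.01, 0.04 and 0.02 over all genes. Bmpr1a, a type I receptor, had means of 178 CPM in D2 and 198 in D7G. The type II receptor Bmpr2 was at 71.2 ± 4.19 CPM in D7 and 128 ± 4.06 in D7G (SD, n = 2), a log2 difference of 0.85 ± 0.05. The coreceptor Rgmb rose in D7G from 20.9 to 36.2 CPM (0.79 ± 0.08), and its relative Rgma fell from 63.2 to 39.4 CPM (-0.68 ± 0.06). Eng, a coreceptor of endothelial cells, was at 36.5 CPM in D3 and 6.26 in D6 (-2.47 ± 0.09). The 7 receptors higher in D7G were 4 without D3, D7 or D7G replicate 1, without D3 or D7 replicate 2, with no filter and in a fit of D7 and D7G alone. The 4 higher in D7 were 2 without D7 replicate 1 or 2 and with no filter, and 1 without D6 replicate 2. The 5 lower in D3 were 3 without D3 replicate 2, and the 2 lower in D7 were 1 without D6 replicate 1, with library totals and in the second table.

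Of 9 Smads of the Bmp branch and intracellular inhibitors, 4 were higher and 4 lower in D3 than in D2. The counts were 3 and 1 in D6 against D3, 4 and 0 in D7 against D6, and 6 and 0 in D7G against D7. In D6 4 of 9 were called, against 65.7% of all genes, and in D7 4 of 9, against 36.0%. Their medians were -0.08, 0.04, 0.20 and 0.37, against 0.00, -0.01, 0.04 and 0.02 over all genes. The inhibitory Smad7 was at 20.2 ± 1.34 CPM in D7 and 50.9 ± 1.32 in D7G (1.33 ± 0.07). Smad5, which carries the signal, rose from 147 to 204 CPM (0.47 ± 0.04), and Bambi, a decoy receptor, from 11.4 to 15.7 CPM (0.45 ± 0.08). Smad4, the shared partner, had means of 122 CPM in D2 and 141 to 144 in the later groups. The 6 in D7G stayed within 1.5 times in every alternative. The 4 higher in D7 were 2 without D6 replicate 1 or D7 replicate 1 or 2. The 4 lower in D3 were 2 without D3 replicate 1 or D2 replicate 2 and with library totals, and the 1 lower in D6 ranged from 0 to 2 with DESeq2, library totals and the stricter filter.

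Few other Bmp ligands were expressed beside the members. Of 10 listed, 7 were tested. The median log2 fold changes were 0.21 in D3 against D2, -1.32 in D6 against D3, 0.30 in D7 against D6 and 0.22 in D7G against D7. Over all genes the medians were 0.00, -0.01, 0.04 and 0.02. Gdf10, a Bmp3-like ligand, was at 0.667 CPM in D3, 9.79 in D6 and 12.5 in D7G, and it rose in D6 by 3.94 ± 0.16. Bmp3 was at 3.40 ± 1.21 CPM in D6 and 1.15 ± 0.0959 in D7 (-1.61 ± 0.27). Bmp8b fell from 2.46 in D3 to 0.396 CPM in D6 (-2.55 ± 0.32). In D7G against D7, 2 were higher and 1 lower, but the 2 were 0 or 1 in 13 alternatives, among them the fits without D2, D3, D7 or D7G replicates 1 or 2. The 1 lower (Bmp3) was 0 in 5 alternatives: without D7 replicate 1 or 2 or D7G replicate 2, with no filter and in DESeq2.

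Other secreted Bmp antagonists and modulators rose in D7G as a larger group. The list does not separate antagonists from modulators. Of 16 listed, 13 were tested, and 10 were higher and 1 lower in D7G than in D7, with a median of 0.80 against 0.02 over all genes, of which 40.7% were called. Fst, whose product follistatin binds activins and Gdf11 as well as Bmps, was at 15.1 ± 0.00805 CPM in D7 and 117 ± 6.90 in D7G (2.96 ± 0.07, adjusted p = 1.83e-16). It had also been high in D3, at 85.5 CPM between 11.2 in D2 and 15.0 in D6, the course that Grem1 took there. Kcp, a chordin-like protein, went from 8.41 to 34.5 CPM in D7G (2.04 ± 0.12). In D3, 7 were higher and 1 lower than in D2, in D6 2 higher and 9 lower than in D3, and in D7 4 higher and 1 lower than in D6, with medians of 0.30, -0.49 and 0.10. The 10 stayed within 1.5 times in every alternative. The 1 lower in D7G was 0 in DESeq2, and its call was also lost without D7 replicate 1 or 2 or D7G replicate 2. The 4 higher in D7 were fewer without D7 replicate 1. The 1 lower in D3 was 0 in DESeq2 and with library totals, and 2 with no filter. Its call was also lost without D2 replicate 1 or D3 replicate 1 or 2.

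Of 6 proteases that cut Bmp precursors or chordin, 4 were higher and 1 lower in D3 than in D2. The counts were 2 and 3 in D6 against D3, 2 and 1 in D7 against D6, and 3 and 1 in D7G against D7. The shares of all genes called were 58.5%, 65.7%, 36.0% and 40.7%. The median log2 fold changes of the 6 were 0.82, -0.47, -0.01 and 0.54, against 0.00, -0.01, 0.04 and 0.02 over all genes. Bmp1, a tolloid protease that cleaves chordin, rose from 48.2 to 86.7 CPM in D7G (0.85 ± 0.06). Furin, which matures Bmp precursors, rose from 41.6 to 60.7 CPM (0.54 ± 0.05), and Pcsk6, of the same family, fell from 29.0 to 23.3 CPM (-0.31 ± 0.06). The 2 higher in D7 were 1 without D6 replicate 1 or D7 replicate 1 or 2 and with no filter. In the second table the 4 higher in D3 were 2, the 2 higher in D6 were 1 and the 1 lower in D7 was 0.

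Genes that Bmp signalling is known to turn on were listed separately, 11 in all. They were called higher and lower in 7 and 2 cases in D3 against D2 and 8 and 2 in D6 against D3. In D7 against D6 they were called in 6 and 1 cases, and in D7G against D7 in 7 and 2. Their median log2 fold changes were 0.90, 1.62, 0.33 and 0.32, against 0.00, -0.01, 0.04 and 0.02 over all genes. Msx1 went from 0.529 CPM in D2 to 15.5 in D3 and 64.7 in D6 (4.78 ± 0.16 and 2.13 ± 0.07). Id2 was at 11.4 CPM in D3 and 103 in D6 (3.24 ± 0.09), the step at which Bmp5 rose. In D7G, Msx2 rose from 7.07 to 19.5 CPM (1.46 ± 0.11) and Id4 from 5.86 to 10.7 CPM (0.87 ± 0.11).

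In the same comparison Id3 was at 133 CPM in D7 and 109 in D7G (-0.29), and Msx1 at 84.3 and 71.8 (-0.23), and both were called lower. Of the 7 higher, Smad6, Smad7 and Bambi also stand in the list of inhibitors, and they and Id genes respond to Tgf-β ligands too. The 6 higher in D7 were 3 without D7 replicate 1 and in DESeq2, where the 2 lower in D7G were 1. The 2 lower in D3 were 1 in DESeq2 and with library totals, and were also fewer without D3 replicate 1 or 2 or D2 replicate 2. The 2 lower in D6 were fewer without D6 replicate 1 and without D3 replicate 2.

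**Figure D4:**
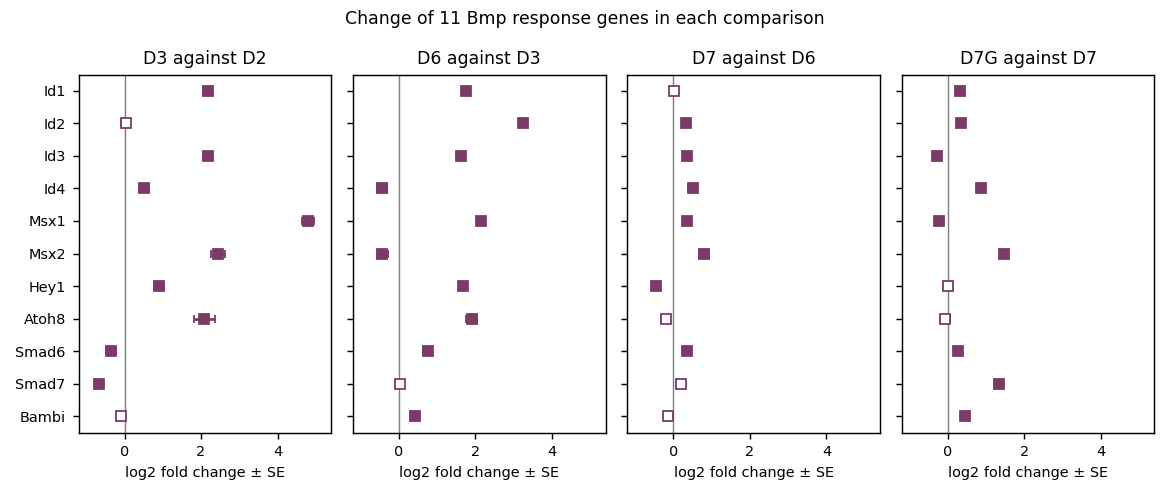
Log2 fold change ± SE of the 11 Bmp response genes in D3 against D2, D6 against D3, D7 against D6 and D7G against D7. Filled squares were called at an adjusted p under 0.05. In D7G against D7, Msx2 (1.46) and Smad7 (1.33) lie highest, and Id3 (-0.29) and Msx1 (-0.23) lie below 0.

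Markers of other cell types moved with some of these steps. In D7G the 7 markers of lateral plate and hindlimb field mesoderm, where Bmp4 is known to be strong, summed to 47.9 to 54.8 CPM, against 25.9 to 26.6 in D7. Of these 4 of 7 were called higher (2 without D7G replicate 1 and in DESeq2), while Hand1, Foxf1 and Isl1 were under 1 CPM in D7G and Pitx1 alone had a mean of 45.2 CPM. The 7 fibroblast markers, which feeder cells also express, summed to 952 to 1099 CPM in D7G against 303 to 324 in D7, 182 to 192 in D6, 294 to 303 in D3 and 141 to 177 in D2. In D7G 6 of 7 were called higher, with Col3a1 at 661 CPM and Dcn at 0.674 CPM. In D3, where Grem1 peaked, 5 of these 7 were called higher than in D2 and 0 lower. In D6 against D3, 1 was higher and 6 were lower, with a median log2 fold change of -3.58. Col1a1 was at 52.2 CPM in D2, 101 in D3 and 8.01 in D6. The sum hides this course, because Col3a1 went the other way, from 28.4 CPM in D3 to 170 in D6. Surface ectoderm and amnion markers summed to 378 to 487 CPM in D3, where Grem1 peaked, against 112 to 113 in D2. They were also higher in D7G, at 277 to 334 CPM against 165 to 175 in D7, with 3 of the 4 tested called. Endoderm markers summed to 202 to 240 CPM in D7G against 145 to 155 in D7 (4 of 5 called higher), and neuron markers to 181 to 192 against 94.2 to 102 (3 of 5 called higher). Neural crest markers summed to 78.2 to 81.9 CPM in D7G and 30.6 to 32.4 in D7, with 2 of 5 called higher and Sox10 and Foxd3 under 1 CPM in both. The 7 markers of presomitic and somitic mesoderm summed to 23.4 to 26.3 CPM in D3, 96.8 to 120 in D6, 82.1 to 82.9 in D7 and 77.0 to 78.2 in D7G. Of these, 5 were higher and 2 lower in D6 than in D3, and 1 higher and 5 lower in D7 than in D6. In D7G against D7, 2 were higher (0 to 2 over the alternatives) and 2 lower.

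The 5 markers of node and notochord, a source of Nog and Chrd in the embryo, summed to 32.3 to 33.1 CPM in D7G against 20.7 to 21.1 in D7, and all 4 that were tested were called higher (2 in DESeq2). Of these, Foxa2 was at 6.69 CPM in D7 and 10.9 in D7G, and Nodal at 11.8 and 17.8, while Noto and Shh were under 1 CPM in all 5 groups. The 6 markers of roof plate and dorsal neural tube, a source of Bmp4 and Bmp7, summed to 471 to 526 CPM in D7G against 523 to 532 in D7, with 0 called higher and 3 lower. Lmx1a, Gdf7 and Wnt1 were under 1 CPM in all 5 groups, and Pax7, Msx1 and Zic1 were at 24.6, 71.8 and 402 CPM in D7G. The part of all these cell types in the levels of the members was not tested.

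For each member, the genes whose log2(CPM + 0.5) followed it most closely over the 10 libraries were found among 13277 candidates with a mean of at least 1 CPM. The 10 libraries form 5 pairs, so these correlations mostly describe the group means. Bmp4 was followed by Ube2e2 and Abat (both r = 0.995), Bmp2 by Ifngr2 (0.994), Bmp7 by Lpcat3 (0.994) and Bmp6 by Ergic3 (0.979). Bmp5 was followed by Eid1 and Id2 (both 0.999) and Nog by Pdgfc (0.997). Grem1 was followed by Washc2 and Nt5e (both 0.988), Chrd by Plppr2 (0.970) and Bmper by L3hypdh (0.957). Candidates with r over 0.95 numbered 593 for Nog, 580 for Bmp5 and 348 for Bmp4, but 5 for Chrd and 4 for Bmper.

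All 9 members were among the 14983 genes in the authors' deposited table, which tests each gene for any difference from D2. Its name carries a cutoff on the false discovery rate. With 18818 genes tested here, most genes would be listed, so being listed does not set the members apart. The false discovery rates given in the authors' deposited table ran from 8.69e-13 for Bmp7 to 0.000351 for Bmper.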

How the data were processed

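RNA-seq libraries from 5 groups with 2 replicates each were analysed. The authors deposited raw counts per gene symbol, a second table of counts per Ensembl gene, and a table that adds CPM, p-values, false discovery rates and log2 fold changes relative to D2. Per the submitters' processing notes the tools were limma, STAR, featureCounts 1.6.3 and HISAT2 2.1.0, and the build was mm10. The role of each, the use of strand and the gene model are not given in the sources used here. Groups and replicate numbers came from the labels.

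The deposited raw counts were fitted with edgeR 4.0.16 in R 4.3.3 by the quasi-likelihood test, with 1 coefficient for each of the 5 groups, TMM scaling and the default filterByExpr, leaving 18818 genes and 5 residual degrees of freedom. Within each comparison the p-values of all 18818 genes were adjusted together (Benjamini-Hochberg), with calls at adjusted p under 0.05. The SE is the log2 fold change divided by the root of its F statistic. The 95% intervals used the t quantile at 19.3 degrees of freedom, the 5 residual ones plus those lent by the spread of other genes. CPM and CPM per kb were computed from the deposited counts and exon lengths, without scaling factors. The fit was tested on simulated data. Gene ends came from the exon coordinates deposited with the raw counts and matched GENCODE vM21 on mm10 for all members. Overlapping genes came from GENCODE vM21 and promoters from RefSeq.

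Members, gene lists and motifs were chosen with earlier results of these data known. Named were all 9 members, up to 3 called genes per list and comparison with the largest change and at least 1 CPM in a group, and the 3 genes most alike to each member. Smad4, Bmpr1a, Id3, Msx1 in D7G and the single markers were named after their values were seen. Alternatives were DESeq2 1.42.0, limma-voom (limma 3.58.1), other scaling, no filter or a filter of 1 CPM in 2 libraries, counts from the second table, fits of only the groups compared, a replicate block, and each of the 10 libraries left out. The same 19 alternatives for the pathway and marker lists were added after seeing the data. Counting intervals cover counting error only. A gene of the pathway lists that the naming rule would give is not reported here.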

Additional observations from a re-analysis of the deposited data

How the results depend on the processing

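Over 19 alternatives the counts of members called kept within 1.5 times of the reported count in 207 of their values, and 2 moved beyond it. With single libraries left out, members lower in D6 against D3 ranged from 2 to 6 (4 reported), and members higher in D7G against D7 from 3 to 6 (6 reported). The remaining library of that group is taken to vary as the other groups do. Of the members' log2 fold changes 805 kept direction and call, 24 lost the call and 10 gained it, as given beside each member. The other 15 changed sign, none of them called, and the cause was not tested. For Bmp6 in D7G against D7 they were -0.0177 with no filter, -0.00779 with the filter of 1 CPM, -0.0115 with only the groups compared, -0.0125 and -0.0121 without D3 replicate 1 or 2, -0.00111 and -0.0229 without D7 replicate 1 or 2, and -0.151 without D7G replicate 1. Without D6 replicate 2, Bmp2 was 0.165 and Bmp6 0.0877 in D7 against D6, and Bmp6 was 0.0983 in D7G against D6. Without D7G replicate 2, Bmp6 in D7G against D6 was 0.0228 and Bmp7 in D7G against D7 0.00555, and without D7 replicate 2 the latter was 0.00704. Without D6 replicate 1, Bmper in D6 against D3 was 0.00115. With single libraries left out, the full ranges were -0.151 to 0.117 (Bmp6) and -0.0923 to 0.00704 (Bmp7) in D7G against D7, -0.297 to 0.165 (Bmp2) and -0.195 to 0.0877 (Bmp6) in D7 against D6, -0.245 to 0.0983 (Bmp6) in D7G against D6 and -0.821 to 0.00115 (Bmper) in D6 against D3. Bmp5 in D3 against D2 had no value in a fit of those groups alone, because the filter removed it.

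Replicate numbers showed no shared shift: the correlation of same-numbered deviations ran from -0.042 to 0.049 over the 10 pairs of groups, and 0 exceeded 0.1. Each tested gene had equal weight, low counts included. These values therefore cannot tell whether same-numbered libraries came from one culture series. With the replicate block, members called higher were 6 in D3 against D2, 3 in D6 against D3, 4 in D7 against D6 and 5 in D7G against D7, where Grem1 had an adjusted p of 0.0505 (edgeR).

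For the other pathway genes named, 34 log2 fold changes lost the call and 0 changed sign. They were those of Smad6 (D3 against D2, D7 against D6), Bmp8b (D3 against D2), Gdf10 (D7 against D6, D7G against D6), Bmp3 (D7G against D7), Fstl3 (D6 against D3), and Htra1, Tll1, Acvr2a and Id4 (D7 against D6). With 3 to 12 counts, Bmp5 in D2 and D3 was at the limit of what this depth resolves.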
